A study of Mus musculus with 3 samples.

Results

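Fam83e, Ifi35, Slc16a4, Fermt3, Cpt1c, Msh4, Fan1, Nup210l, Lmln and Cdc42bpg are 10 of the 32285 mouse genes counted in single embryonic stem cells exposed to tubercidin. They were chosen by symbol as genes whose counts were higher after tubercidin and which begin just past the end of an expressed gene on the same strand. Because their higher counts were used to choose them, their levels against the control are a description and not a finding. Cells of the E14 line, from a 129/Ola background, were grown on gelatin in medium with serum and leukaemia inhibitory factor. One day after seeding 10 uM tubercidin, an adenosine analogue, was added and left for 3 h or 6 h. DMSO, the solvent, was added to the control for 6 h. Each condition is 1 droplet library of polyadenylated RNA, so no spread between cultures could be measured, no difference was tested, and every interval is an exact 95% interval that covers counting error only.

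A gene's transcript normally ends where the new RNA is cut behind a poly(A) signal, most often the hexamer AATAAA, and receives a poly(A) tail. RNA polymerase II runs on for some distance before it leaves the DNA, and RNA made past the cut is usually degraded. RNA that continues past a gene's end can reach the next gene on the same strand, where a count table assigns it to that next gene's name. Counts of RNA ends in a droplet assay do not show where a molecule began.

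Positions are in the mm10 (GRCm38) build, and in each pair the named preceding gene was the nearest same-strand gene before the member in GENCODE M21. All members and preceding genes are annotated as protein coding. Fam83e (chr7:45721212-45729492, plus strand) begins 375 bases past the end of Rpl18 (chr7:45715457-45720836), the smallest gap. Slc16a4 (chr3:107291230-107312115, plus strand) begins 7147 bases past Lamtor5 (chr3:107278858-107284082), the largest gap among the 10.

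A further 3 pairs lie on the minus strand at similar gaps: Cpt1c (chr7:44959372-44974851) begins 1137 bases past Prmt1, Msh4 (chr3:153857149-153906138) 1148 bases past Rabggtb, and Fermt3 (chr19:6998958-7019469) 1232 bases past Stip1. Lmln (chr16:33062521-33127695) lies 2331 bases past Rpl35a, Fan1 (chr7:64346758-64374095, minus strand) 2431 bases past Mphosph10, and Ifi35 (chr11:101448407-101458698) 2877 bases past Rpl27. Nup210l (chr3:90104132-90212048) lies 3229 bases past Tpm3 and Cdc42bpg (chr19:6306456-6325652) 6359 bases past Ehd1. The members differ widely in build. Nup210l spans 107917 bases, of which 5.30% are exonic, whereas Fam83e spans 8281 bases, of which 46.4% are exonic.

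**Figure D1:**
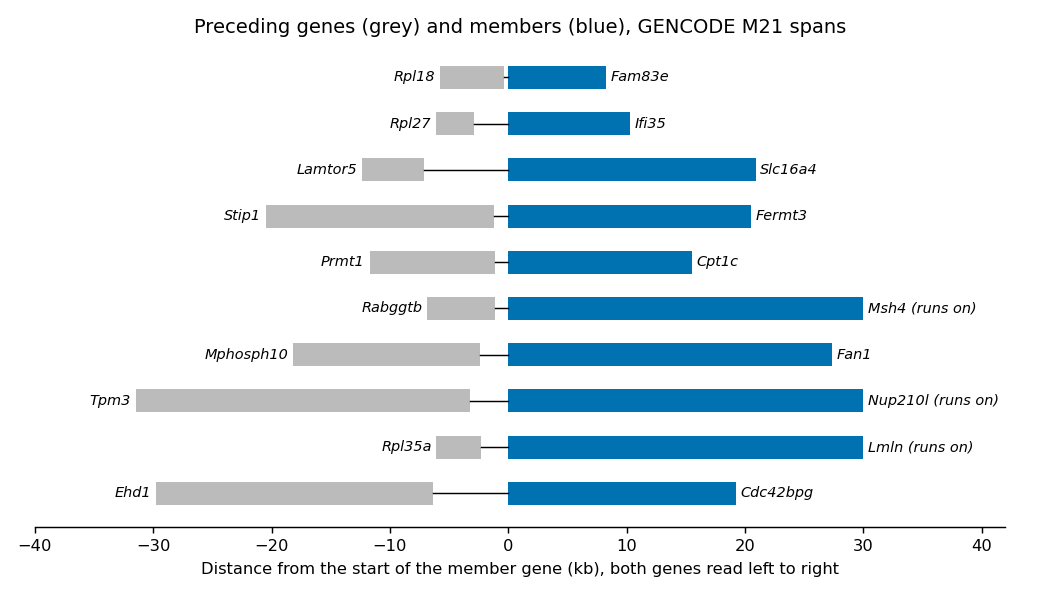
Each row is 1 pair, drawn to scale as distance in kb from the start of the member, with the preceding gene in grey, the gap as a line and the member in blue; Msh4, Nup210l and Lmln are drawn to 30 kb only. The gaps run from 375 bases (Rpl18 to Fam83e) to 7147 bases (Lamtor5 to Slc16a4).

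The annotated ends of the preceding genes are shown because RNA that reaches a member as part of a longer transcript has to pass them. The lines give 30 bases, 5′ to 3′, starting 30 to 33 bases before the end of the farthest protein-coding transcript in GENCODE M21, with the last AATAAA or ATTAAA in capitals.
Rpl18: tgttAATAAAaaaaacattggatgatgatg
Rpl27: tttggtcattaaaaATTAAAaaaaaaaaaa
Lamtor5: attatggccAATAAAcctgttctgaggaaa
Tpm3: ttgaAATAAAgaaccagtccctccacgatc
A hexamer AATAAA or ATTAAA stood in the last 40 bases of that transcript for 9 of the 10 preceding genes, Rpl35a being the exception. For Rabggtb the end of that transcript is not the annotated gene end from which the gap to Msh4 was measured. The share over 21626 genes with a protein-coding transcript was 70.6%, and over 536 genes that precede a same-strand gene in the list described below it was 76.3%. These are matches of letters on the transcribed strand and not mapped sites of cleavage.

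RefSeq start windows (250 bases before to 50 after a start, GRCm38.p6) were matched by symbol for 8 of the 10 members. The window of Fam83e is shown because it fills most of the shortest gap, beginning 133 bases past the end of Rpl18, at chr7:45720970-45721269 on the plus strand. It has a GC content of 62.3% and holds neither hexamer nor a run of 10 A on the transcribed strand, so no letter is in capitals.
Fam83e: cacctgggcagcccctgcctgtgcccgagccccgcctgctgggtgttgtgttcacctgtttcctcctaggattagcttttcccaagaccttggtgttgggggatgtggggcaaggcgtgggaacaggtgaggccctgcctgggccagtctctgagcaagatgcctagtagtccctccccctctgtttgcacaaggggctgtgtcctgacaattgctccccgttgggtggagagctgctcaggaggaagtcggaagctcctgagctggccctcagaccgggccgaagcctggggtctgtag
The window of Cpt1c (chr7:44974802-44975101, minus strand) is shown because it carries a run of 27 A on the transcribed strand, in capitals. The run lies ahead of the annotated start, outside the span of Cpt1c, and its part in the counts was not tested.
Cpt1c: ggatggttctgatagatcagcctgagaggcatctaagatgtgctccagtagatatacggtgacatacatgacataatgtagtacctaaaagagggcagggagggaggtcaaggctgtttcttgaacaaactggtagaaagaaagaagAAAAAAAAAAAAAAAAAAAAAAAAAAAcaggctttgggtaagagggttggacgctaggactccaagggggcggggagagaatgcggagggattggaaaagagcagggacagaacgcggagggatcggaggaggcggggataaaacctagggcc
Cpt1c was the only member among the 8 with a run of at least 10 A, against 738 of 32851 windows (2.25%). AATAAA or ATTAAA was found in 1 of the 8, Fermt3, against 17.3% of all windows.

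Control, 3 h and 6 h libraries held 2031, 2365 and 2926 called cells, with medians of 48452, 11877 and 8004.5 unique molecular identifiers (UMIs, tags that mark single captured RNA molecules). Levels are a gene's UMIs summed over called cells per 1000000 UMIs (CPM). The libraries shared 1 cell barcode in each pair of libraries. All 11 stem cell markers had a mean of at least 1 CPM, among them Pou5f1 with 137, 159 and 213 CPM in the order control, 3 h, 6 h. Sox2 gave 205, 80.6 and 81.1 CPM, Nanog 77.4, 62.4 and 50.2 CPM. Sox2, Klf4 and Fgf4 were at least 2-fold lower at 6 h. Summed markers stood at 0.963, 1.37 and 2.19 CPM for 7 fibroblast genes and at 0.00953, 0 and 0.932 CPM for 6 two-cell-like genes. Other lists were higher. Sums were 138, 127 and 118 CPM for 12 neuron genes and 41.3, 30.8 and 31.7 CPM for 6 germ cell genes. They were 12.8, 8.46 and 10.4 CPM for 5 trophoblast genes and 8.60, 6.69 and 10.8 CPM for 6 primitive endoderm genes.

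All 10 members were higher at 6 h than in the control by at least 2-fold, on the scale of log2(CPM + 1) used for every count of this kind, and 7 of the 10 at 3 h. The median log2 ratio was 1.42 at 3 h and 2.20 at 6 h. Of the 13587 genes whose mean reached 1 CPM, 1.60% were at least 2-fold higher at 3 h and 4.56% at 6 h, with median log2 ratios of -0.25 and -0.09. Between 3 h and 6 h, 3 members were at least 2-fold higher at 6 h, against 2.69% of these genes and 1.64% of the 7884 genes at 10 CPM or more. The members were chosen for this contrast, so nothing is read from the distance to the background. The folds given below for single genes are ratios of CPM without a pseudocount.

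Fam83e (ENSMUSG00000054161) belongs to a family whose shared domain anchors casein kinase 1. Its UMIs numbered 95, 513 and 509 in the control, 3 h and 6 h libraries, which are 0.906, 17.2 and 20.6 CPM. It was 18.9-fold higher at 3 h (interval 15.2 to 23.8) and 22.8-fold higher at 6 h (18.3 to 28.7), the largest folds of the 10, from the lowest control level of the 10. Most of this difference was present at 3 h, and the 6 h level was 1.20-fold that at 3 h (1.06 to 1.36).

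Ifi35 (ENSMUSG00000010358) encodes an interferon-induced protein that binds NMI. It stood at 1.91, 12.1 and 19.2 CPM in the control, 3 h and 6 h, a 6.37-fold difference at 3 h (5.34 to 7.61) and a 10.1-fold difference at 6 h (8.54 to 12.0). The 3 counting intervals did not overlap, in the order control, 3 h, 6 h. Slc16a4 (ENSMUSG00000027896), a member of the monocarboxylate transporter family, stood at 4.47, 17.5 and 31.0 CPM, 3.91-fold (3.44 to 4.43) and 6.92-fold (6.16 to 7.78) above the control.

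Fermt3 (ENSMUSG00000024965) encodes kindlin-3, which activates integrins in blood cells. It stood at 3.00, 11.1 and 18.2 CPM, 3.70-fold (3.16 to 4.33) and 6.04-fold (5.22 to 7.0) above the control. Msh4 (ENSMUSG00000005493), a meiotic MutS homologue that works with MSH5 at crossovers, stood at 3.92, 21.1 and 21.1 CPM, 5.39-fold (4.75 to 6.11) and 5.38-fold (4.72 to 6.13) above the control. Msh4 was the one member without a difference between the treated libraries beyond counting error, with a 6 h to 3 h ratio of 0.998 (0.887 to 1.12).

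Fan1 (ENSMUSG00000033458), a nuclease recruited by FANCD2 in repair of crosslinked DNA, stood at 4.26, 11.5 and 16.5 CPM, 2.70-fold (2.34 to 3.12) and 3.88-fold (3.38 to 4.45) above the control. Nup210l (ENSMUSG00000027939), a testis relative of the nuclear pore protein NUP210, stood at 29.6, 63.2 and 97.2 CPM, 2.13-fold (2.01 to 2.26) and 3.28-fold (3.11 to 3.46) above it. Both stood highest at 6 h with intervals apart from those at 3 h.

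The remaining members were the 3 that passed 2-fold between 3 h and 6 h. Cpt1c (ENSMUSG00000007783), the brain form of carnitine palmitoyltransferase 1, stood at 18.2, 35.2 and 89.0 CPM and was 2.53-fold higher at 6 h than at 3 h (2.35 to 2.72). Lmln (ENSMUSG00000022802), a leishmanolysin-like metallopeptidase, stood at 14.1, 19.0 and 45.5 CPM and was 2.40-fold higher at 6 h than at 3 h (2.17 to 2.66). Cdc42bpg (ENSMUSG00000024769), a kinase that binds active CDC42, stood at 7.47, 8.23 and 23.7 CPM and was 2.88-fold higher at 6 h than at 3 h (2.48 to 3.36). At 3 h the interval of its fold against the control, 0.950 to 1.27, included 1, so Cdc42bpg showed no difference at 3 h beyond counting error, while at 6 h it was 3.18-fold higher (2.85 to 3.54).

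**Figure D2:**
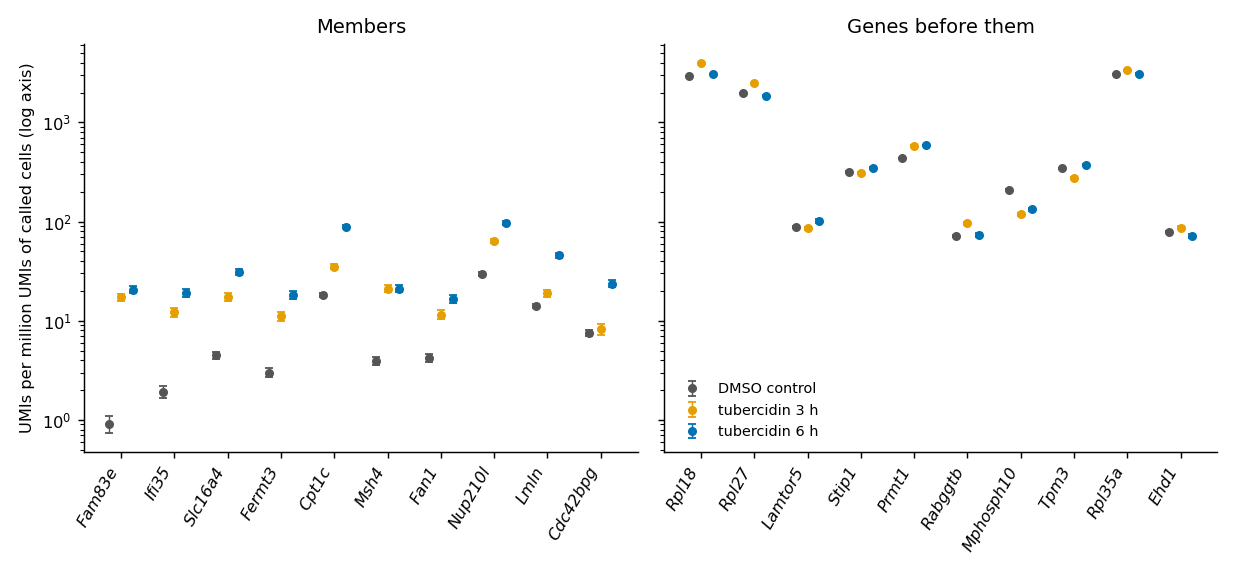
The left panel shows the 10 members and the right panel the 10 genes before them, in CPM on a log axis, with 1 point for each library and bars for the exact 95% counting interval. Every member is highest at 6 h or, for Msh4, level between 3 h and 6 h at 21.1 CPM. The members were chosen for higher counts. No preceding gene differs 2-fold from the control, which is near the share of all genes.

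The preceding genes were expressed in each library, and in CPM none of the 10 was 2-fold higher or lower at either time. Of the 7884 genes at a mean of at least 10 CPM, 0.888% were higher and 5.54% lower at 3 h. At 6 h these shares were 2.33% and 4.41%, so a count of 0 among 10 genes is near the share of all genes. The median log2 ratio of the preceding genes was 0.13 at 3 h and 0.04 at 6 h. Smaller differences passed counting error, with 6 genes higher and 3 lower at 3 h, and 5 higher and 3 lower at 6 h. Rpl18, a protein of the large ribosomal subunit, stood at 2950, 3992 and 3084 CPM, and Rpl35a, another, at 3097, 3343 and 3101 CPM. The highest 6 h ratio was that of Prmt1, the main arginine methyltransferase, at 437, 579 and 585 CPM (log2 ratios of 0.40 and 0.42). The lowest was that of Mphosph10, a protein of the U3 particle in ribosome assembly, at 209, 119 and 133 CPM (log2 ratios of -0.81 and -0.65). Fan1 was thus higher after tubercidin while Mphosph10, the gene ahead of it, was lower.

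The number of member UMIs for every 1000 UMIs of the preceding gene compares both genes inside 1 library, so it does not depend on how libraries are scaled. It is not a ratio of molecules made, since genes differ in how well their RNA is captured. Fam83e gave 0.307 UMIs per 1000 of Rpl18 (0.248 to 0.375) with DMSO, 4.30 (3.93 to 4.69) after 3 h and 6.69 (6.12 to 7.30) after 6 h. Ifi35 gave 0.971, 4.86 and 10.4 per 1000 of Rpl27, and Lmln 4.57, 5.67 and 14.7 per 1000 of Rpl35a. After the ribosomal protein genes the members therefore stayed at or below 14.7 per 1000 in all 3 libraries.

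After less abundant genes the ratios were larger. Slc16a4 gave 50.9, 204 and 306 per 1000 of Lamtor5, a subunit of the Ragulator complex. Msh4 gave 54.6, 220 and 289 per 1000 of Rabggtb, a subunit of the enzyme that prenylates Rab proteins. Cdc42bpg gave 95.7, 94.5 and 328 per 1000 of Ehd1, an endocytic recycling protein, and was the only pair without a higher ratio at 3 h. Across the 10 pairs the median log2 change of the ratio was 1.97 at 3 h and 2.44 at 6 h, with values from -0.02 to 3.81 and from 1.61 to 4.44. Within the pair all 10 ratios were also higher at 6 h than at 3 h, by 1.14-fold for Nup210l after Tpm3 up to 3.47-fold for Cdc42bpg. Such a ratio also moves with the preceding gene, and 5 of the 10 preceding genes were lower at 6 h than at 3 h and 5 higher. Msh4 itself was level between the times at 21.1 CPM, while Rabggtb went from 96.0 CPM at 3 h to 72.8 CPM at 6 h.

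**Figure D3:**
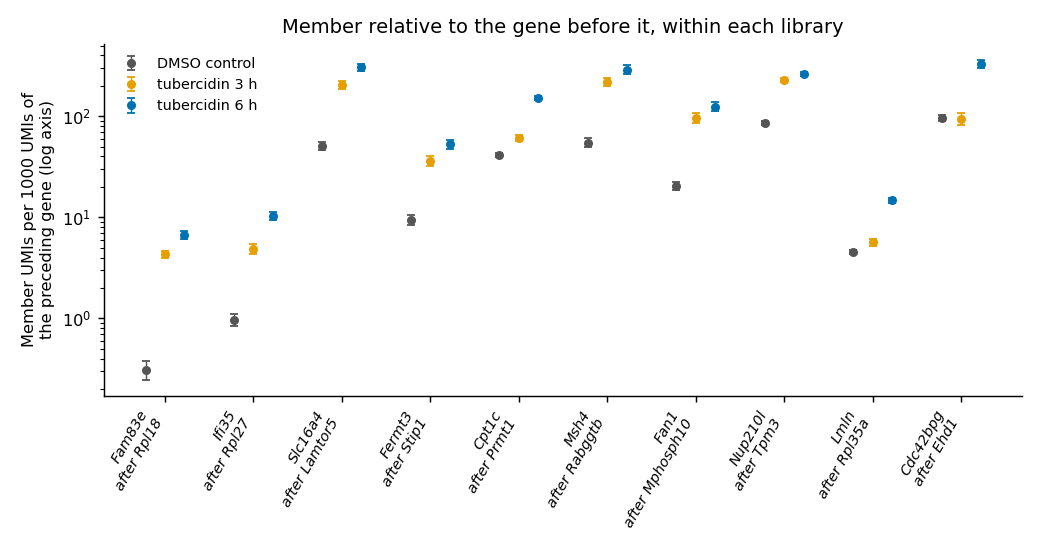
For each pair, the points give the UMIs of the member per 1000 UMIs of the preceding gene on a log axis in the 3 libraries, with exact 95% counting intervals. The 6 h point is the highest in all 10 pairs, and the control and 3 h points of Cdc42bpg after Ehd1 coincide at 95.7 and 94.5.

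The scaling sets what a higher level means here. Per cell, without scaling, the 10 members together had 4.54, 2.73 and 3.22 UMIs in the control, 3 h and 6 h libraries, in cells with medians of 48452, 11877 and 8004.5 UMIs of all genes. RNA content of the cells and sequencing depth cannot be told apart in these numbers. Fam83e had more UMIs per cell than in the control at both times (0.0468, 0.217 and 0.174), as did Ifi35 (0.0985, 0.153 and 0.162). Slc16a4 had 0.231, 0.221 and 0.261 UMIs per cell, and Msh4 0.202, 0.267 and 0.178. Fermt3 had 0.155, 0.140 and 0.153, and Cpt1c, Fan1, Nup210l, Lmln and Cdc42bpg had fewer UMIs per cell in both treated libraries.

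At equal depth the members were found in more cells. They were chosen for higher counts, so these shares are a description. Cells of 1 library are not replicates, and the intervals cover the sampling of cells only. Every cell was thinned to 4000 UMIs, which left out 0, 122 and 284 cells. At least 1 UMI of any of the 10 genes was then found in 598 of 2031 control cells (29.4%, Clopper-Pearson interval 27.5 to 31.5%), 1226 of 2243 cells at 3 h (54.7%, 52.6 to 56.7%) and 1954 of 2642 cells at 6 h (74.0%, 72.2 to 75.6%). Unthinned, the shares were 95.5%, 87.4% and 87.7%. UMIs of at least 2 different members were found in 3.99%, 18.7% and 37.4% of thinned cells. The 1% of thinned cells with most member UMIs held 8.96%, 6.25% and 4.72% of them.

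Fam83e was found in 0.345%, 6.46% and 7.99% of thinned cells and Ifi35 in 0.443%, 4.32% and 7.42%. Nup210l was found in 11.1%, 21.8% and 30.5%, and Cpt1c in 7.78%, 12.5% and 27.7%. For Cdc42bpg the 3 h share of 3.61% (2.88 to 4.47%) overlapped the control's 2.81% (2.13 to 3.62%), and the 6 h share was 8.06% (7.05 to 9.17%). For the 9 other members the 3 h interval lay wholly above the control's, which describes these libraries and measures no spread between cultures.

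**Figure D4:**
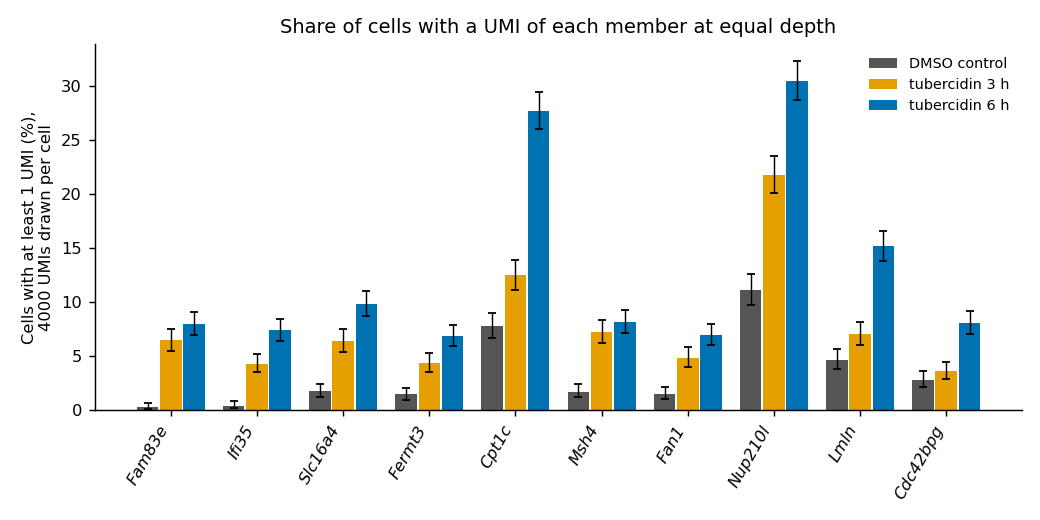
Bars give the percentage of cells with at least 1 UMI of each member after thinning each cell to 4000 UMIs, with Clopper-Pearson 95% intervals. All 10 members have their highest bar at 6 h, from 6.85% for Fermt3 to 30.5% for Nup210l.

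RNA outside cells was read from the 10000 barcodes that follow the 5000 richest in UMIs. There the 10 members summed to 82.4, 143 and 166 CPM, where called cells had 87.9, 216 and 382 CPM. As a sum, free RNA thus carried the members at about the level of cells in the control and at a lower level than cells after tubercidin. Single members could differ from the sum. At 3 h Nup210l stood at 62.2 CPM in free RNA and 63.2 CPM in cells. In the control Msh4 stood at 1.44 CPM (0.468 to 3.36) in free RNA and 3.92 CPM in cells. Fam83e had 2, 17 and 10 UMIs there, or 0.576 CPM (0.0698 to 2.08), 7.95 CPM (4.63 to 12.7) and 7.08 CPM (3.39 to 13.0). Cdc42bpg had 26, 9 and 9 UMIs, or 7.49, 4.21 and 6.37 CPM with overlapping intervals.

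The members' level also differed with the mitochondrial share of a cell's RNA, whose part in the results was not tested. In cells above 10% mitochondrial UMIs the 10 genes summed to 146 CPM among control cells (26 cells), 496 CPM at 3 h (124 cells) and 1017 CPM at 6 h (50 cells). In the cells at or below 10% they summed to 87.7, 211 and 379 CPM, close to the values over all cells. With cells parted at the median depth of their library, shallower cells had sums of 87.0, 233 and 370 CPM and deeper cells 88.5, 208 and 388 CPM.

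The genes around the pairs are few, and their counts are near the shares of all genes given above. Of the 8 genes that come next after a member on the same strand within 50000 bases, 6 had a mean of at least 1 CPM. Of these 6, 0 were 2-fold higher or lower at either time, where 4.56% of all genes were higher at 6 h, and their 6 h log2 ratios ran from -0.22 to 0.52. Rab13, a small GTPase that begins 1646 bases past Nup210l, stood at 10.7, 14.1 and 14.1 CPM, and Ap2a1, an adaptor subunit for endocytosis that begins 29875 bases past Cpt1c, stood at 52.7, 48.0 and 62.0 CPM. Of the 10 genes on the far side of the preceding genes, 8 had a mean of at least 1 CPM. None of the 8 was 2-fold higher, and 1, 4933434E20Rik beside Tpm3, was 2-fold lower at 3 h, where 6.20% of all genes were. It stood at 28.6, 12.3 and 14.5 CPM (log2 ratios of -1.15 and -0.93). Mcee, an enzyme of methylmalonyl-CoA metabolism beside Mphosph10, stood at 33.7, 27.3 and 26.0 CPM, and Dbp, a circadian transcription factor beside Rpl18, at 5.03, 6.09 and 2.71 CPM.

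Genes on the other strand overlapped 4 of the members by more than 100 bases. Gm17106, which overlaps Lmln, Rpl35a and the gap between them on the other strand, stood at 9.30, 17.8 and 44.1 CPM, log2 ratios of 0.87 and 2.13. 6530437J22Rik, opposite Cpt1c, stood at 1.33, 2.38 and 5.92 CPM, log2 ratios of 0.53 and 1.57. Whether strand was used in counting is not given in the sources used here, so reads of Lmln and Gm17106, and of Cpt1c and 6530437J22Rik, are uncertain as to their gene. Opposite Fam83e, Spaca4 had at most 0.0405 CPM, and opposite Ifi35, Gm11626 had at most 0.0669 CPM.

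The same position was then read across the genome, from a list whose positions were set by annotation and by the level of the preceding gene. It holds genes that begin 1 to 5000 bases past the end of a same-strand gene with a mean of at least 50 CPM. With a mean of at least 1 CPM there were 437 such genes, 8 of them members, Slc16a4 and Cdc42bpg lying beyond the limit. That mean covers all 3 libraries, so genes that are high only after tubercidin can enter through it. Of the 437, 40 (9.15%) were at least 2-fold higher at 3 h and 64 (14.6%) at 6 h, compared with 1.60% and 4.56% of all 13587 genes. Their median log2 ratios were 0.03 and 0.17, against -0.25 and -0.09. Leaving out the 8 members gave 34 (7.93%) and 56 (13.1%) of 429 genes. A filter chosen after seeing the data, at least 1 CPM in the control, kept 402 genes, 7 of them members. Fam83e, at 0.906 CPM in the control, had passed the filter on the mean only through the treated libraries. Of the 402, 20 (4.98%) and 35 (8.71%) were 2-fold higher, against 0.989% and 3.29% of 13454 genes.

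With the filter on the mean, the share was smaller at other positions and at larger gaps. Genes at the same gap after a gene below 50 CPM were 2-fold higher in 1.70% and 4.14% of 1644 cases. Genes whose start lies beside the start of an expressed gene on the other strand reached 2.00% and 2.55% of 549. Genes whose end faces the end of an expressed gene on the other strand reached 4.94% and 8.30% of 506. Without members, the shares at 3 h and 6 h were 11.3% and 13.4% of 97 genes for gaps up to 1000 bases, 6.93% and 13.0% of 332 for gaps over 1000 to 5000 bases, 2.87% and 5.56% of 558 for gaps over 5000 to 20000 bases, and 1.24% and 3.86% of 647 for gaps over 20000 to 100000 bases. After a preceding gene of at least 200 CPM, still without members, they were 10.0% and 16.9% of 130 genes.

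**Figure D5:**
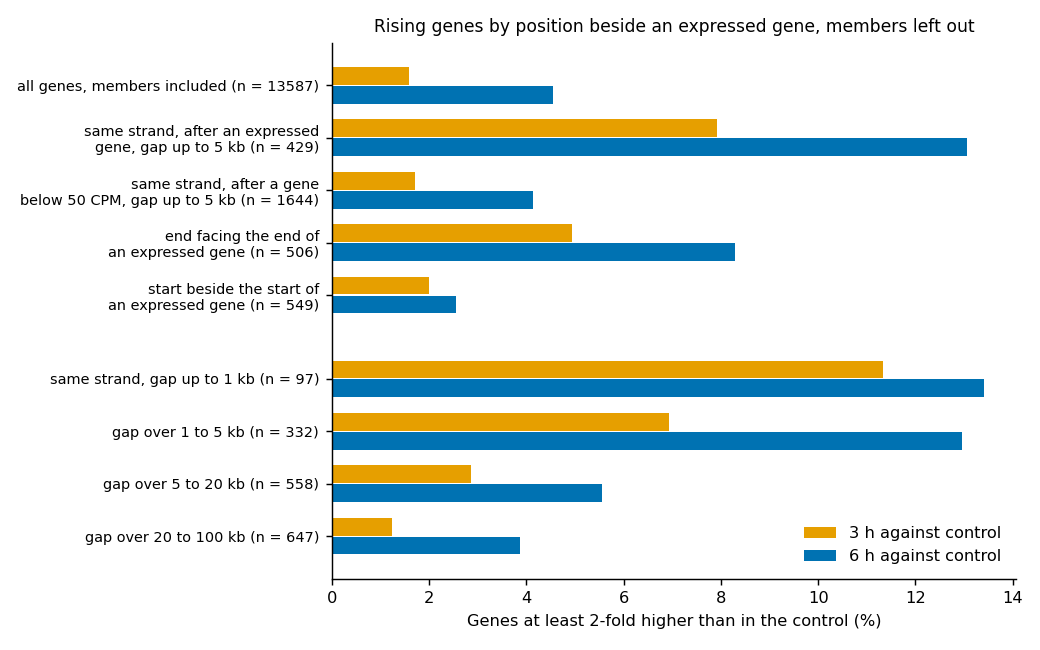
Bars give the percentage of genes, at a mean of at least 1 CPM, that were at least 2-fold higher than in the control at 3 h and 6 h, by position beside an expressed gene; the 10 members are left out of the same-strand lists. The same-strand list within 5 kb reaches 7.93% and 13.1%, against 1.60% and 4.56% of all genes. The mean covers all 3 libraries, so genes that are high only after tubercidin can pass it.

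The higher shares lay mostly among genes of low level. At a mean from 1 to 10 CPM, 16.5% of 170 following genes were 2-fold higher at 3 h and 26.5% at 6 h, against 2.58% and 7.63% of all 5703 genes in that range. At 10 CPM or more, without members, 2.32% and 4.25% of 259 were higher, against 0.888% and 2.33% of all 7884 genes there. A filter on the mean lets in genes that are high only after treatment. With genes kept by at least 1 CPM in the control instead, a filter chosen after seeing the data, 4.98% and 8.71% of 402 following genes were 2-fold higher, against 0.989% and 3.29% of 13454 genes. Without members these were 3.80% and 7.09% of 395. By gap, again without members, the control filter gave 7.78% at both times for 90 genes up to 1000 bases and 2.62% and 6.89% for 305 genes over 1000 to 5000 bases. It gave 1.85% and 3.70% for 540 genes over 5000 to 20000 bases and 1.08% and 2.94% for 647 genes over 20000 to 100000 bases. Facing ends had 2.63% and 4.66% of 494 genes under it. At a mean of 10 CPM or more there was no steady order by gap past 1000 bases at 3 h, with 1.49%, 1.78% and 1.52% in the same 3 ranges, and at 6 h 4.48%, 2.97% and 2.53%. Up to 1000 bases, 58 genes of that level gave 5.17% and 3.45%.

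Among the 6 following genes with the highest 6 h ratios, members left out, were Lsmem1, Agbl2, Lct, Terb1 and Gzmm. They were picked by these ratios, so their levels are a description. Lsmem1, Agbl2, Lct and Terb1 stood below 1 CPM in the control and passed the filter on the mean only through the treated libraries. Lsmem1, which encodes a small membrane protein and begins 2076 bases past Ifrd1, stood at 0.191, 13.3 and 13.2 CPM (log2 ratios of 3.59 and 3.58). Lct, the intestinal lactase gene, begins 3271 bases past the replication gene Mcm6 and stood at 0.610, 7.96 and 9.89 CPM (2.48 and 2.76). Terb1, which ties meiotic telomeres to the nuclear envelope, begins 1117 bases past Nae1 and stood at 0.667, 3.71 and 7.86 CPM.

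Gzmm, a granzyme of lymphocytes 621 bases past Cdc34, stood at 1.35, 6.16 and 11.02 CPM. Agbl2, a carboxypeptidase acting on tubulin, stood at 0.715, 5.55 and 11.5 CPM after Fnbp4. The position did not always go with a higher level. The 4 lowest were Ppp4c after Aldoa (43.9, 14.1 and 15.4 CPM), Zfp513 after Ppm1g (9.89, 4.22 and 2.67 CPM), Ftl1 after Bax (179, 60.5 and 59.4 CPM) and Tor1a after BC005624 (29.7, 11.8 and 8.22 CPM).

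Genes that work with the members, or belong to the cell types in which members are best known, form short lists. Their counts are set beside 4.56% of all genes higher and 5.11% lower at 6 h. At 3 h the shares of all genes were 1.60% higher and 6.20% lower. Of 28 measured paralogues and partners, 1 was at least 2-fold higher at 6 h, Fermt1, at 4.72, 18.6 and 12.4 CPM, and the median log2 ratio was 0.01. Msh5, the partner of Msh4, stood at 1.73, 1.44 and 1.01 CPM, Nmi, the partner of Ifi35, at 0.620, 0.636 and 0.527 CPM, and Fancd2, the partner of Fan1, at 40.4, 28.9 and 42.8 CPM. Of 8 measured interferon-stimulated genes 0 were 2-fold higher at 6 h, with Ddx58, a sensor of viral RNA, highest at 17.5, 30.4 and 35.2 CPM (log2 ratio 0.96). Ifitm3, a membrane protein that restricts virus entry, was 2-fold higher at 3 h, at 321, 717 and 584 CPM. Of 15 measured meiosis genes 0 were 2-fold higher and 1, Mei4, was 2-fold lower at 6 h, with a list median of -0.30.

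Of 18 genes of crosslink repair 0 were 2-fold higher and 3, Fanca, Ube2t and Dclre1a, were 2-fold lower at 6 h, with a median of -0.33. Of 11 blood cell markers only Laptm5, a lysosomal membrane protein, had a mean of 1 CPM or more, at 39.4, 83.1 and 93.9 CPM, so the list's sums of 42.1, 87.0 and 99.5 CPM rest on that gene. Laptm5 was at least 2-fold higher at both times (log2 ratios of 1.06 and 1.23). Of 9 measured neuron markers and 5 measured germ cell markers 0 were 2-fold higher at 6 h. Of 23 genes for 3′ end formation and transcription termination, 2, Clp1 and Rbbp6, were 2-fold lower at 3 h, where 6.20% of all genes were. At 6 h 0 of them were 2-fold higher or lower, and the list medians were -0.03 and 0.00. Pabpn1, which binds new poly(A) tails, had the highest 6 h log2 ratio of that list, 0.80, at 283, 528 and 494 CPM.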

How the data were processed

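Droplet single-cell RNA was counted in 3 libraries of mouse E14 embryonic stem cells, 1 each for control, 3 h and 6 h. The deposited matrices hold raw UMI counts per gene and barcode. Cell Ranger 7.1.0 and mm10 are named, per the submitters' processing notes. Annotation release, intron counting and strand setting are not given in the sources used here. A barcode counted as a cell when it reached the library's own UMI minimum (11034, 2961 and 2107), set by the 99th percentile of its 3000 richest barcodes divided by 10, and at least 500 genes, and 0, 7 and 1 were removed for over 20% mitochondrial UMIs. Called cells held 104892739, 29892000 and 24681924 UMIs, so 3 counts, taken as a floor, correspond to 0.0286, 0.100 and 0.122 CPM. No doublet caller was run. An alternative left out cells above 2 times the median UMIs.

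UMIs were summed over cells, scaled to 1000000 UMIs in each library, and compared as log2(CPM + 1). With 1 library for each condition no test was possible, and a difference of at least 2-fold is a rule of size. Ratio intervals are exact conditional binomial, and shares have Clopper-Pearson intervals. The scripts were tested on simulated data. Neighbouring genes came from GENCODE M21, which held 32235 of the 32285 identifiers, and start windows from RefSeq. All members and preceding genes are described. Among other following genes, the 6 highest and 4 lowest at 6 h were to be named, and 1 of the highest is not reported here. The members and the gene lists were chosen with earlier results of these data known. Alternatives covered cell calling, scaling, pseudocount, filters, gap and level of the preceding gene. Python 3.11.15, pandas 2.3.3, scipy 1.17.1 and, for TMM, edgeR 4.0.16 were used.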

Additional observations from a re-analysis of the deposited data

Results flagged for a closer look

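Among the preceding genes, 4 stood on opposite sides of the control at 3 h and at 6 h, each beyond counting error. Rpl27, the gene before Ifi35, had log2 ratios of 0.35 at 3 h and -0.081 at 6 h. Stip1, a cochaperone gene before Fermt3, had -0.045 and 0.12. Tpm3, a tropomyosin gene before Nup210l, had -0.32 and 0.11, and Ehd1, before Cdc42bpg, had 0.16 and -0.11. The difference between the times was not tested for these genes. Median-of-ratios scaling moved the median of all genes by 0.25 at 3 h and 0.12 at 6 h, which is as large as several of these values.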

How the results depend on the processing

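The number of members at least 2-fold higher was 1 at 3 h, 1 at 6 h and 0 between 3 h and 6 h under UMIs per cell, where CPM gave 7, 10 and 3. Of all genes, 0.0736%, 0.0515% and 0.0442% passed per cell. Median-of-ratios and TMM factors both gave 8 for 3 h and 10 for 6 h, with 3.02% and 5.60% of all genes under the first and 2.55% and 4.19% under the second. UMIs per cell turned 7 members below the control at each time: Slc16a4 (-0.053), Fermt3 (-0.11), Fan1 (-0.46), Nup210l (-0.89), Cpt1c (-0.998), Lmln (-1.42) and Cdc42bpg (-1.49) on the log2 scale at 3 h, and Fermt3 (-0.014), Cpt1c (-0.31), Msh4 (-0.15), Fan1 (-0.51), Nup210l (-0.86), Lmln (-0.84) and Cdc42bpg (-0.80) at 6 h. That scaling moved the median of all genes by -1.66 and -2.14. The median of the preceding genes at 3 h was 0.41 with median-of-ratios factors, 0.32 with TMM factors and -1.87 per cell. At 6 h it was 0.17 with median-of-ratios factors and -2.52 per cell. The share of following genes at least 2-fold higher at 3 h was 0.686% per cell, 4.49% at a mean of at least 10 CPM, 4.80% with a preceding gene of at least 10 CPM and 4.98% with at least 1 CPM in the control, a filter chosen after seeing the data. At 6 h these shares were 0.686%, 7.12%, 8.79% and 8.71%. Per cell, 0.0736% and 0.0515% of all genes passed. The share of cells with any member was 95.5%, 87.4% and 87.7% unthinned and 16.3%, 36.4% and 50.2% at 2000 UMIs. Depth limits single members most in the treated libraries. No paired analysis was possible because each condition is 1 library.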

Other observations

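Genes whose annotated end faces the end of an expressed gene on the other strand also held some with much higher levels after tubercidin. The 5 highest at 6 h, chosen after their values were seen, were Pram1, Klb, Slc10a1, Tmed6 and Cpm. Klb and Tmed6 stood below 1 CPM in the control and passed the filter on the mean only through the treated libraries. With at least 1 CPM in the control, 4.66% of 494 such genes were 2-fold higher at 6 h, against 3.29% of 13454 genes. Pram1, an adaptor of myeloid cells that faces the splicing factor gene Hnrnpm at 526 bases, stood at 2.55, 16.0 and 32.5 CPM in the control, 3 h and 6 h. Klb, the co-receptor for FGF21, faces Rpl9 and stood at 0.515, 4.11 and 8.31 CPM. Slc10a1, a bile acid transporter of the liver, faces Srsf5 and stood at 1.52, 10.2 and 13.5 CPM. Tmed6 stood at 0.200, 5.72 and 4.94 CPM beside Nip7, and Cpm, a carboxypeptidase gene beside Mdm2, at 1.11, 3.65 and 8.99 CPM. Each has 1 library per condition and no test, and the strand setting of the counting is not given in the sources used here.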
